A study of Homo sapiens with 3 samples.

Results

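Aminoacyl-tRNA synthetases attach amino acids to their tRNAs, and the human genome holds largely separate gene sets for the cytosol and for mitochondria. The genes described here are 36 synthetase genes, 20 cytosolic and 16 mitochondrial, chosen by name from 35851 rows of a deposited expression table, and all 36 were found in it. The table came from 5637 cells, a human bladder cancer line labelled wild type in genotype, and every sample was transfected with siRNA by lipofection. A negative control siRNA was used for 1 library (siNC), and the other 2 had MYBL2 as the siRNA target and are called siMYBL2-1 and siMYBL2-2. The labels give no time after transfection. MYBL2 is a transcription factor of late cell cycle genes, and the study's design text gives the search for genes downstream of it as the aim. The labels do not say whether -1 and -2 are different siRNA sequences or repeats of a sequence, nor whether each library had its own culture. All p-values therefore rest on a spread between libraries that could be technical. Poly(A) RNA was sequenced and levels were deposited as RPKM, in which reads are scaled to the exonic length of a gene and to the reads assigned in the library. Wherever 3 RPKM values follow each other below, they belong to siNC, siMYBL2-1 and siMYBL2-2 in that order.

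Each synthetase activates an amino acid with ATP and passes it to the matching tRNA, and the charged tRNA is carried to the ribosome by an elongation factor. The enzymes fall into class I and class II, which differ in the fold of the catalytic domain. In the cytosol 8 of the 20 enzymes listed (DARS, EPRS, IARS, KARS, LARS, MARS, QARS and RARS) assemble with 3 scaffold proteins into the multisynthetase complex. Mitochondrial enzymes are encoded in the nucleus, mostly under names that end in 2, and serve the translation of the few proteins encoded by mitochondrial DNA. GARS and KARS are genes that encode both the cytosolic and the mitochondrial form of their enzyme. Both are counted here with the 20 cytosolic genes only. Many cytosolic synthetase genes are known targets of ATF4, the transcription factor of the amino acid response, which binds C/EBP-ATF response elements.

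Because this element is a known regulatory sequence of cytosolic synthetase genes, its core TGATGNAA was searched on both strands of the RefSeq promoters (GRCh38.p14, 250 bases before to 50 after each start), which matched 30 of the 36 genes. AARS2, DARS, LARS, VARS, VARS2 and YARS had no entry. The core was found for 8 of the 30 genes (26.7%), against 4.46% of 27305 genes with a promoter in the table. These were 7 of 16 cytosolic genes and 1 of 14 mitochondrial genes. The matches are shown 5′ to 3′ on the strand of the gene with up to 16 bases on each side, the matched core in capitals. TTNCATCA is the core read from the opposite strand.
GARS: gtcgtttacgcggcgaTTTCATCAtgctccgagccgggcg
IARS: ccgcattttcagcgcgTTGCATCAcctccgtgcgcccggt
MARS: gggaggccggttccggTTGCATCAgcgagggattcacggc
CARS: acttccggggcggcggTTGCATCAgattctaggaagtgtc
TARS: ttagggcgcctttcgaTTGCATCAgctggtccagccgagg
AARS: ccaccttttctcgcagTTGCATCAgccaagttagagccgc
NARS: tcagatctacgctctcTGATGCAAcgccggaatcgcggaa
YARS2: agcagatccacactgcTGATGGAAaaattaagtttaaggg
They lie at chr7:30594829-30594868 (GARS, plus strand), chr9:92293687-92293726 (IARS, minus), chr12:57488048-57488087 (MARS, plus), chr11:3057402-3057441 (CARS, minus), chr5:33440951-33440990 (TARS, plus), chr16:70289670-70289709 (AARS, minus), chr18:57621799-57621838 (NARS, minus) and chr12:32756071-32756110 (YARS2, minus). The IARS, MARS, CARS, TARS and AARS windows share the 8 letters TTGCATCA, NARS carries the same core on the other strand, and GARS and YARS2 each differ at the free position N.

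The E-box CACGTG, the core bound by MYC and related factors, was found for 4 of the 30 genes (13.3%; CARS2, EARS2, IARS and MARS2) against 8.77% of all genes. The core TTTGAA of the cell cycle genes homology region, an element of MuvB-bound promoters, was found for 1 gene, GARS (3.33% against 18.2%). The MYB core AACNG was present for 24 of the 30 genes (80%), as for most genes (80.5%). HARS and HARS2, the cytosolic and mitochondrial histidine enzymes, start back to back on chromosome 5. Their promoters overlap over 184 bases, shown on the plus strand, with the stretch from the HARS start (leftmost capital) to the HARS2 start 85 bases on (rightmost capital) in capitals (chr5:140691321-140691504):
HARS and HARS2: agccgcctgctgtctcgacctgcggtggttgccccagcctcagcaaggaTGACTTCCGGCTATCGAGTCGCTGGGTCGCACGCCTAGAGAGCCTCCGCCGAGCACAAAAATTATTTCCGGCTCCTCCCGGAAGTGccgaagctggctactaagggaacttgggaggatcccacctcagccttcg

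The libraries held 40259436 (siNC), 41818861 (siMYBL2-1) and 46177658 (siMYBL2-2) assigned reads. MYBL2 was at 211, 46.0 and 56.3 RPKM, so that 21.8% and 26.7% of the siNC level remained. All 8 epithelial and urothelial markers were at 8.98 RPKM or more in every library, all 4 leukocyte and 3 endothelial markers were under 1 RPKM, and of 3 fibroblast markers COL1A1 alone reached 1 RPKM (at most 2.03). Both siMYBL2 libraries are compared with the same siNC library. Limma-trend on log2(RPKM + 1), fitted to the 13274 genes whose mean reached 1 RPKM, called 1 gene, which was higher and is not a synthetase. MYBL2 itself did not pass this test (limma log2 change -2.03, SE 0.30, adjusted p 0.153).

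Cytosolic synthetase genes were expressed at higher levels per length than mitochondrial ones in all 3 libraries. In siNC the median was 13.9 RPKM over the 20 cytosolic genes (range 5.05 to 90.4) and 3.87 RPKM over the 16 mitochondrial genes (0.329 to 23.6). The corresponding medians were 13.1 and 3.98 RPKM in siMYBL2-1 and 16.6 and 4.23 RPKM in siMYBL2-2. The highest cytosolic genes were SARS, which charges serine tRNA, at 90.4, 91.4 and 99.1 RPKM, and NARS, for asparagine, at 67.5, 72.1 and 84.0 RPKM. The ranges of the groups overlapped, and the highest mitochondrial gene was IARS2, the isoleucine enzyme, at 23.6, 23.0 and 23.3 RPKM. Its level was 2.45, 1.95 and 2.30 times that of its cytosolic counterpart IARS. In the other 16 of 17 pairings by amino acid the cytosolic gene was higher in all 3 libraries. The narrowest of them was histidine, where HARS was at 1.11, 1.38 and 1.40 times the level of HARS2, and the widest was EPRS, the fused glutamate and proline enzyme, at 70.1, 51.4 and 59.5 times PARS2. Lengths are unions of all annotated exons, so a gene with many rarely used exons has a level set low by its length.

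**Figure D1:**
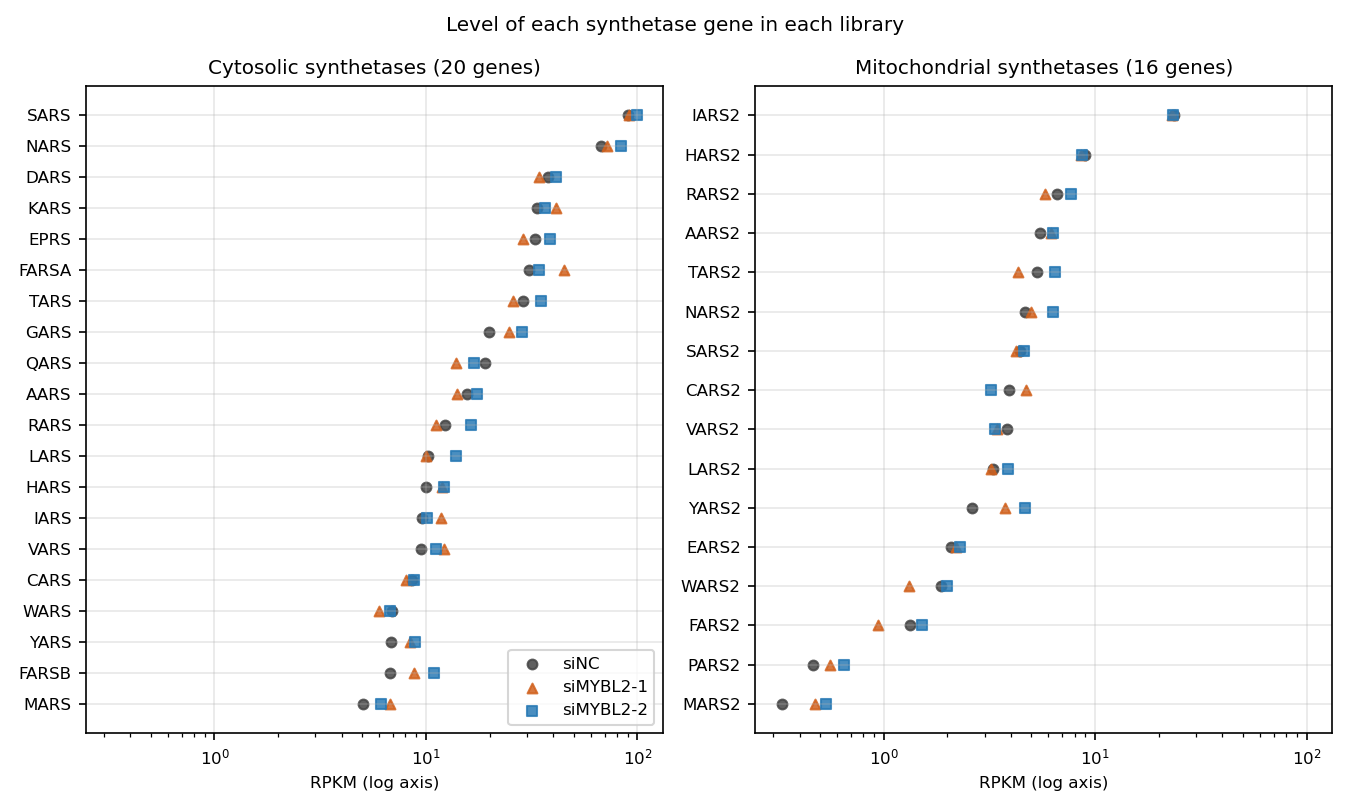
RPKM (log axis) of each of the 20 cytosolic and 16 mitochondrial synthetase genes in siNC (circles), siMYBL2-1 (triangles) and siMYBL2-2 (squares), 1 library each, ordered by the siNC level. SARS tops the cytosolic panel at 90.4 to 99.1 RPKM and IARS2 the mitochondrial panel at 23.0 to 23.6 RPKM, and for most genes the 3 symbols lie close together.

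No synthetase gene passed the test for siMYBL2 against siNC. By limma-trend 0 of the 34 genes tested were called (0.00753% of all genes tested were). Of the 34, 0 had an unadjusted p under 0.05 (smallest 0.101, YARS2), and the smallest adjusted p was 0.9986. Limma-voom on reads recovered from the table also called 0, with 0 unadjusted values under 0.05. Standard errors of the log2 change lay between 0.279 and 0.317. MARS2 and PARS2, the mitochondrial methionine and proline enzymes, were under 1 RPKM in every library and were not tested. MARS2 was at 0.329, 0.475 and 0.531 RPKM, and PARS2 at 0.466, 0.560 and 0.646 RPKM, on 40 to 74 reads.

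Of the 20 cytosolic genes, 11 lay above siNC in both siMYBL2 libraries, 2 (QARS and WARS) lay below it in both and 7 were split. Over all genes tested 29.7% lay above in both and 36.4% below in both. Relative to siNC the cytosolic genes had median log2 ratios of 0.05 (siMYBL2-1) and 0.22 (siMYBL2-2), beside -0.04 and -0.01 for all genes tested. In siMYBL2-1 alone 11 of the 20 exceeded siNC (45.3% of all genes tested did), and in siMYBL2-2 alone 18 of 20 (48% of all genes). Of the 14 tested mitochondrial genes 4 lay above siNC in both libraries, 3 below in both (HARS2, IARS2 and VARS2) and 7 were split, with medians of -0.04 and 0.10. Of these 14, 5 exceeded siNC in siMYBL2-1 and 10 in siMYBL2-2. With MARS2 and PARS2 included, 6 of 16 lay above in both. The cytosolic median thus exceeded the mitochondrial one by 0.10 in siMYBL2-1 and 0.12 in siMYBL2-2, while the cytosolic median itself differed by more than that between these libraries. Genes are not replicates, so no test was made of this difference. With scaling by the median of ratios LARS and LARS2 joined the genes above siNC in both libraries, IARS2 moved from below to above in both and WARS became split. All these counts go by the direction of each ratio alone, whatever its size.

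A stricter reading asks that siNC be farther from the nearer siMYBL2 library than the siMYBL2 libraries are from each other on the log2 scale. Above siNC 13.6% of all genes tested met this, and so did 6 of 20 cytosolic genes (FARSB, GARS, HARS, MARS, VARS and YARS) and 3 of 14 tested mitochondrial genes (AARS2, EARS2 and YARS2). Below siNC 17.2% of all genes met it, against 0 cytosolic genes and 2 mitochondrial genes (HARS2 and VARS2).

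**Figure D2:**
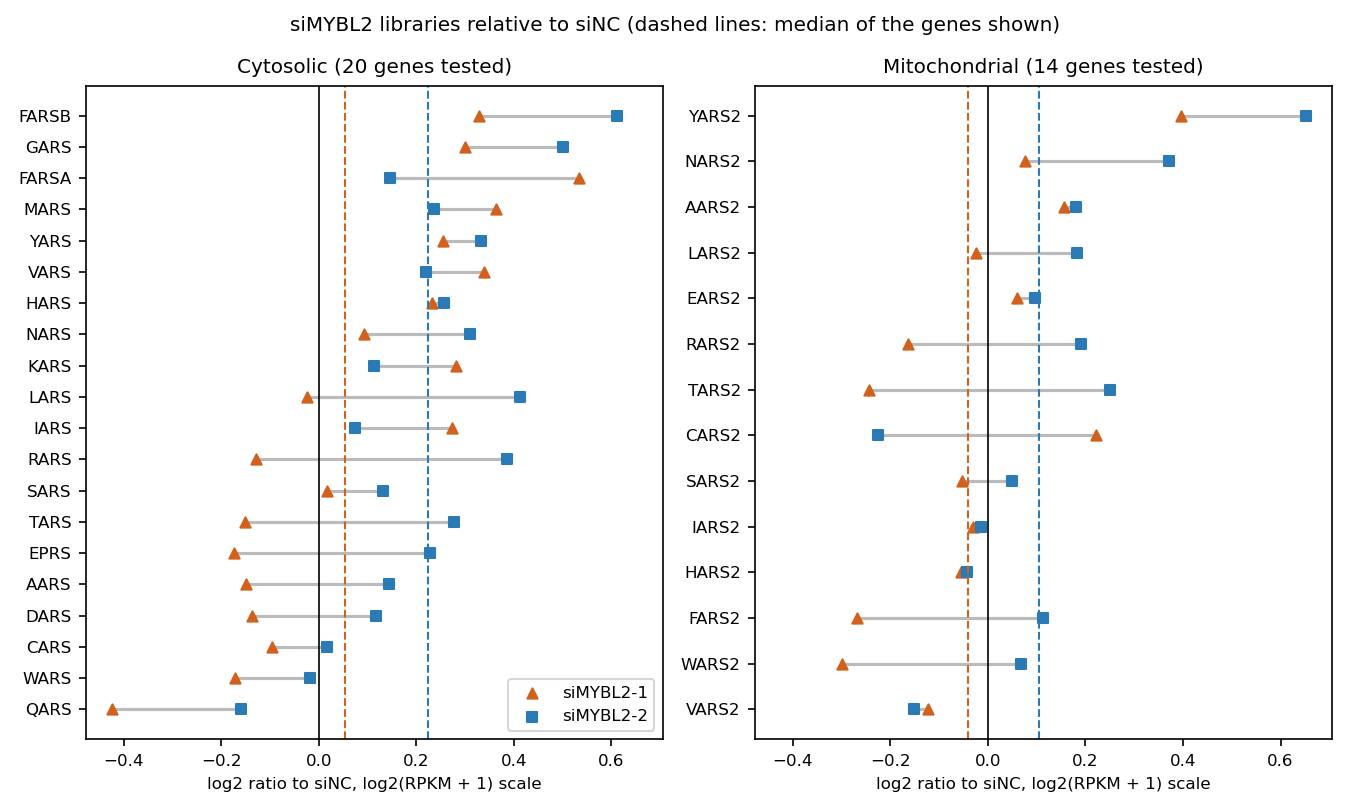
Log2 ratio to siNC on the log2(RPKM + 1) scale of each tested synthetase gene in siMYBL2-1 (triangles) and siMYBL2-2 (squares), joined by a grey line and ordered by their mean. Dashed lines mark the medians, 0.05 and 0.22 for the cytosolic genes and -0.04 and 0.10 for the mitochondrial genes, and long grey lines across 0 are genes whose siMYBL2 libraries lay on either side of siNC.

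The 5 cytosolic genes with the highest mean ratio were FARSB, GARS, FARSA, MARS and YARS. FARSB, the beta subunit of the phenylalanine enzyme (hg38 chromosome 2, 222570536 to 222656337, minus strand), was at 6.77, 8.75 and 10.9 RPKM. Both siMYBL2 values lay above siNC, with a mean of 9.81 ± 1.49 RPKM (SD, n = 2). The ratios to siNC were 1.29 (95% counting interval 1.19 to 1.41) and 1.61 (1.48 to 1.74). Its limma log2 change was 0.47 (SE 0.29, 95% interval -0.18 to 1.12, adjusted p 0.999).

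FARSA, the alpha subunit of the same enzyme (chromosome 19, 12922479 to 12934037, minus strand), was at 30.7, 44.9 and 34.1 RPKM. It was also higher in both siMYBL2 libraries, with a mean of 39.5 ± 7.66 RPKM (SD, n = 2), but here siMYBL2-1 was the higher of the pair. The ratios were 1.46 (1.40 to 1.53) and 1.11 (1.06 to 1.16), and the limma log2 change was 0.34 (SE 0.31, adjusted p 0.999). The enzyme is a tetramer of equal numbers of each subunit, and the RPKM of FARSA over that of FARSB was 4.54 in siNC, 5.13 in siMYBL2-1 and 3.14 in siMYBL2-2.

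GARS, the glycine enzyme (chromosome 7, 30594681 to 30634033, plus strand), was at 19.8, 24.6 and 28.4 RPKM. Its siMYBL2 mean was 26.5 ± 2.69 RPKM (SD, n = 2), and both values lay above siNC, at 1.24 (95% counting interval 1.19 to 1.30) and 1.44 (1.37 to 1.50) times its level. The limma log2 change was 0.40 (SE 0.29, 95% interval -0.25 to 1.05, adjusted p 0.999). MARS, the methionine enzyme (chromosome 12, 57475445 to 57517569, plus strand), was at 5.05, 6.79 and 6.13 RPKM, a limma log2 change of 0.30 (SE 0.29, adjusted p 0.999). Its exons overlap those of DDIT3 and ARHGAP9 on the opposite strand, 87.6% of its bases belong to no other row, and DDIT3 was at 6.02, 5.80 and 8.07 RPKM. YARS, the tyrosine enzyme (chromosome 1, 32775237 to 32818153, minus strand), was at 6.85, 8.37 and 8.88 RPKM, a limma log2 change of 0.29 (SE 0.28, adjusted p 0.999). In both genes the siMYBL2 libraries lay above siNC and nearer to each other than to siNC.

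The lowest cytosolic genes were QARS, WARS and CARS. QARS, the glutamine enzyme (chromosome 3, 49095932 to 49105135, minus strand), was at 19.0, 13.9 and 16.9 RPKM. Both siMYBL2 values were below siNC, with a mean of 15.4 ± 2.11 RPKM (SD, n = 2). The ratios to siNC were 0.733 (95% counting interval 0.697 to 0.770) and 0.890 (0.849 to 0.932). The limma log2 change was -0.29 (SE 0.29, 95% interval -0.95 to 0.36, adjusted p 0.999). WARS, the tryptophan enzyme, also known as an interferon-induced gene (chromosome 14, 100333788 to 100376805, minus strand), was at 6.88, 6.00 and 6.79 RPKM (limma log2 change -0.09, SE 0.29, adjusted p 0.999). For WARS the counting interval of siMYBL2-2 to siNC included 1 (0.925 to 1.05). CARS, the cysteine enzyme (chromosome 11, 3000922 to 3057613, minus strand), was at 8.62, 8.00 and 8.74 RPKM (limma log2 change -0.04, SE 0.29, adjusted p 0.999), below siNC in siMYBL2-1 alone.

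Among the remaining class I enzymes, VARS, for valine, was at 9.45, 12.2 and 11.2 RPKM, above siNC in both. IARS, for isoleucine, was at 9.60, 11.8 and 10.2 RPKM, also above in both. LARS, for leucine, was at 10.2, 10.0 and 13.9 RPKM, and RARS, for arginine, was at 12.2, 11.1 and 16.3 RPKM. Both of these were lowest in siMYBL2-1 and highest in siMYBL2-2. EPRS, which joins a class I and a class II enzyme in 1 chain, showed the same order at 32.6, 28.8 and 38.4 RPKM. For LARS the counting interval of siMYBL2-1 to siNC included 1 (0.935 to 1.03).

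Among the remaining class II enzymes, KARS, for lysine, was at 33.6, 41.0 and 36.4 RPKM, and HARS, for histidine, at 9.98, 11.9 and 12.1 RPKM. SARS and NARS, given above, and these 2 lay above siNC in both siMYBL2 libraries, SARS by ratios of no more than 1.10. For SARS the counting interval of siMYBL2-1 to siNC included 1 (0.988 to 1.04). AARS, for alanine, was at 15.6, 14.0 and 17.4 RPKM, DARS, for aspartate, at 37.8, 34.3 and 41.1 RPKM, and TARS, for threonine, at 28.9, 25.9 and 35.2 RPKM. In these 3 genes siMYBL2-1 was lowest and siMYBL2-2 highest, with siNC between.

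YARS2 had the highest mean ratio of all synthetase genes. The mitochondrial tyrosine enzyme (chromosome 12, 32727490 to 32755902, minus strand) was at 2.61, 3.74 and 4.67 RPKM, on 226, 337 and 464 reads. Both siMYBL2 values lay above siNC, with a mean of 4.21 ± 0.654 RPKM (SD, n = 2), at 1.44 (95% counting interval 1.21 to 1.71) and 1.79 (1.52 to 2.11) times its level. The limma log2 change was 0.52 (SE 0.29, 95% interval -0.12 to 1.17, adjusted p 0.999). NARS2, for asparagine (chromosome 11, 78435961 to 78574874, minus strand), was at 4.65, 4.95 and 6.31 RPKM (limma log2 change 0.22, SE 0.29, adjusted p 0.999), and AARS2, for alanine (chromosome 6, 44299654 to 44313326, minus strand), at 5.47, 6.21 and 6.33 RPKM (0.17, SE 0.28, adjusted p 0.999). AARS2 was nearly equal in both siMYBL2 libraries and NARS2 was not. For NARS2 the counting interval of siMYBL2-1 to siNC included 1 (0.952 to 1.19).

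The lowest mitochondrial genes were VARS2, WARS2 and FARS2. VARS2, for valine (chromosome 6, 30908242 to 30926459, plus strand), was at 3.83, 3.44 and 3.35 RPKM, below siNC in both with a mean of 3.40 ± 0.0610 RPKM (SD, n = 2). The ratios were 0.897 (95% counting interval 0.829 to 0.971) and 0.875 (0.809 to 0.945), and the limma log2 change was -0.14 (SE 0.28, adjusted p 0.999). GTF2H4 covers part of the VARS2 exons, of which 78.0% belong to no other row. WARS2, for tryptophan (chromosome 1, 119031216 to 119140671, minus strand), was at 1.86, 1.32 and 2.00 RPKM (limma log2 change -0.12, SE 0.30, adjusted p 0.999). FARS2, a single-chain phenylalanine enzyme (chromosome 6, 5261044 to 5771580, plus strand), was at 1.33, 0.936 and 1.52 RPKM on 92 to 165 reads (-0.08, SE 0.29, adjusted p 0.999). Both were low in siMYBL2-1 and highest in siMYBL2-2. The counting intervals of siMYBL2-2 to siNC included 1 (0.917 to 1.26 for WARS2 and 0.900 to 1.45 for FARS2).

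Of the other mitochondrial genes, TARS2 was at 5.29, 4.32 and 6.49 RPKM, RARS2 at 6.62, 5.80 and 7.69 RPKM, LARS2 at 3.28, 3.21 and 3.86 RPKM and SARS2 at 4.41, 4.21 and 4.59 RPKM. In all 4 siMYBL2-1 was the lowest library and siMYBL2-2 the highest. CARS2, for cysteine, had the reverse order at 3.91, 4.73 and 3.20 RPKM. For SARS2 the counting intervals of the ratios to siNC included 1 in both libraries (0.850 to 1.08 and 0.931 to 1.17). For LARS2 the interval included 1 in siMYBL2-1 (0.882 to 1.09). For IARS2, given above, it included 1 in both libraries (0.936 to 1.02 and 0.949 to 1.03). EARS2, which charges glutamate onto its own tRNA and onto the mitochondrial glutamine tRNA, was at 2.07, 2.20 and 2.29 RPKM. The EARS2 ratios to siNC were 1.06 (95% counting interval 0.938 to 1.21) and 1.10 (0.977 to 1.25). HARS2 was at 8.97, 8.60 and 8.67 RPKM, so that across the divergent start region printed above HARS lay above siNC in both siMYBL2 libraries and HARS2 just below it. The HARS2 ratios of 0.958 (95% counting interval 0.884 to 1.04) and 0.967 (0.894 to 1.05) had intervals that include 1. Of the HARS2 exonic bases 78.2% belong to no other row and of those of HARS 81.7%, and for SARS2, which shares bases with MRPS12 and CTC-360G5.8, the share was 43.0%. The strand setting of the counting is not given in the sources used here, so reads of bases shared with the opposite strand cannot be assigned. On the same strand, HARS shares bases with DND1, HARS2 with ZMAT2, SARS2 with CTC-360G5.8 and VARS2 with GTF2H4. Reads of those bases cannot be told apart by strand.

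Most synthetases were lower in siMYBL2-1 than in siMYBL2-2. They were 15 of the 20 cytosolic genes and 12 of the 14 tested mitochondrial genes, against 52.4% of all genes tested. On the log2 scale siMYBL2-1 minus siMYBL2-2 had a median of -0.18 for the cytosolic and -0.15 for the mitochondrial genes, and -0.02 for all genes tested. The counting interval of this ratio excluded 1 for 19 of 20 cytosolic genes, 14 lower and 5 higher in siMYBL2-1, and for 8 of 16 mitochondrial genes, 7 lower and 1 higher. The 16 include the untested MARS2 and PARS2. This count was not made over all genes, and it depends on depth, as more reads give narrower intervals. Reads in siNC were 918 to 13958 for cytosolic and 40 to 3949 for mitochondrial genes. RARS, a member of the multisynthetase complex, was at 0.681 (95% counting interval 0.640 to 0.726) times its siMYBL2-2 level in siMYBL2-1, LARS at 0.720 (0.689 to 0.752), TARS at 0.736 (0.712 to 0.760) and EPRS at 0.750 (0.727 to 0.774). The mitochondrial TARS2 was at 0.666 (0.607 to 0.730). In the other direction CARS2 was at 1.48 (1.38 to 1.58) and FARSA at 1.32 (1.26 to 1.38). The intervals reflect counting error alone, and can be too narrow even for that, as amplified reads are not separate molecules. With 1 library of each kind the differences have no replicate check.

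**Figure D3:**
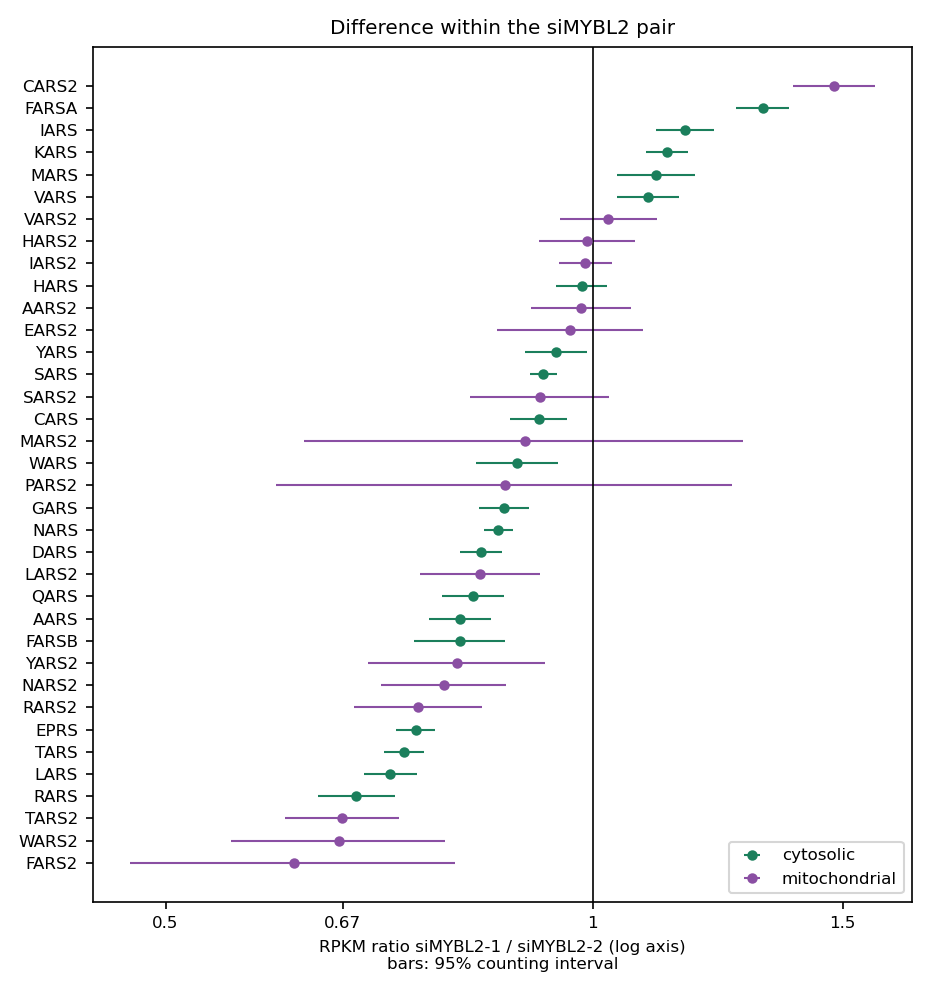
RPKM ratio of siMYBL2-1 to siMYBL2-2 (log axis) for all 36 synthetase genes, with 95% counting intervals, cytosolic genes in green and mitochondrial genes in purple. Most points lie left of 1, down to TARS2 (0.666), WARS2 (0.663) and FARS2 (0.616), while CARS2 (1.48) and FARSA (1.32) stand at the right.

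The enzymes of the multisynthetase complex lay on both sides of siNC. Of the 8 enzymes, IARS, KARS and MARS lay above siNC in both siMYBL2 libraries, QARS lay below in both and DARS, EPRS, LARS and RARS were split, with a median log2 ratio of -0.08 in siMYBL2-1 and 0.17 in siMYBL2-2. The 12 cytosolic enzymes outside the complex had medians of 0.16 and 0.24, with 8 above siNC in both libraries. Over all genes tested 29.7% lay above in both and 36.4% below in both, with medians of -0.04 and -0.01. Of the genes of the 3 scaffold proteins that hold the complex, EEF1E1 and AIMP2 lay above siNC in both siMYBL2 libraries and AIMP1 in siMYBL2-2. EEF1E1 (also named AIMP3) was at 3.08, 4.07 and 5.76 RPKM, AIMP2 at 8.88, 11.7 and 13.1 RPKM and AIMP1 at 29.7, 29.1 and 40.8 RPKM. None of the 3 passed (limma log2 changes 0.52, 0.44 and 0.21, SE 0.30, 0.29 and 0.31, adjusted p 0.999), and 88.4% of AIMP1, 71.1% of AIMP2 and 81.3% of EEF1E1 exonic bases belong to no other row.

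The genes with a C/EBP-ATF element core in the promoter were mixed. As background for the counts here, 29.7% of all genes tested lay above siNC in both siMYBL2 libraries and 36.4% below it in both. Of the 8, GARS, IARS, MARS, NARS and YARS2 lay above siNC in both siMYBL2 libraries and AARS, CARS and TARS were split. Among the 22 matched genes without the core 9 lay above in both, 4 below in both and 9 were split. These 22 include MARS2 and PARS2, which lay above in both but were not tested, unlike the genes of the background. The 12 cytosolic synthetases listed as ATF4-linked from general knowledge had median log2 ratios to siNC of -0.0044 and 0.23 in siMYBL2-1 and siMYBL2-2, and the other 8 had 0.26 and 0.18. Of 29 genes listed for the amino acid response, 21 were tested and 0 passed limma in either direction, with 10 above siNC in both libraries, 4 below in both and 7 split (medians 0.16 and 0.09). ATF4 itself was at 72.7, 86.8 and 69.2 RPKM, and ASNS, asparagine synthetase and a standard ATF4 target, at 0.898, 0.558 and 1.21 RPKM. ASNS had a mean under 1 RPKM and was not tested. Its level was the lowest in siMYBL2-1, where ATF4 was the highest. STC2, a secreted glycoprotein, was at 3.15, 10.2 and 3.10 RPKM, DDIT4, an inhibitor of mTORC1, at 46.5, 32.9 and 30.4 RPKM, PHGDH, of serine synthesis, at 49.4, 24.6 and 49.3 RPKM, and PYCR1, of proline synthesis, at 3.97, 5.74 and 5.83 RPKM. STC2 and PHGDH stood apart in siMYBL2-1 alone, STC2 highest there like ATF4 and PHGDH lowest there like ASNS. DDIT4 lay below siNC and PYCR1 above it in both, with 58.8% and 70.3% of their bases in no other row.

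Genes that mature, export or proofread tRNA mostly lay above siNC without passing the test. Of 15 genes of tRNA end maturation, export and proofreading, 0 passed limma in either direction, 11 lay above siNC in both siMYBL2 libraries, 1 below in both and 3 were split, against 29.7% above and 36.4% below in both over all genes tested. The medians were 0.22 and 0.26, beside -0.04 and -0.01 for all genes. RPP40 and POP1, subunits of RNase P, were at 1.96, 3.16 and 2.78 RPKM (RPP40) and 11.6, 15.9 and 14.5 RPKM (POP1), and XPOT, the tRNA exporter, was at 6.23, 8.68 and 7.00 RPKM. Of 11 mitochondrial partners of charged tRNA 10 were tested and 0 passed, with 5 above in both, 2 below in both and 3 split (medians 0.27 and 0.17), against the same shares over all genes. TUFM, the mitochondrial elongation factor that carries charged tRNA, was at 84.2, 124 and 94.2 RPKM, its exchange factor TSFM at 6.43, 8.32 and 8.97 RPKM, the translocase GFM1 at 6.06, 7.51 and 8.09 RPKM, and the initiation factor MTIF3 at 7.78, 5.18 and 7.36 RPKM. Of these 4 all but MTIF3 lay above siNC in both libraries, and 71.5% of TSFM and 88.7% of MTIF3 bases belong to no other row.

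**Figure D4:**
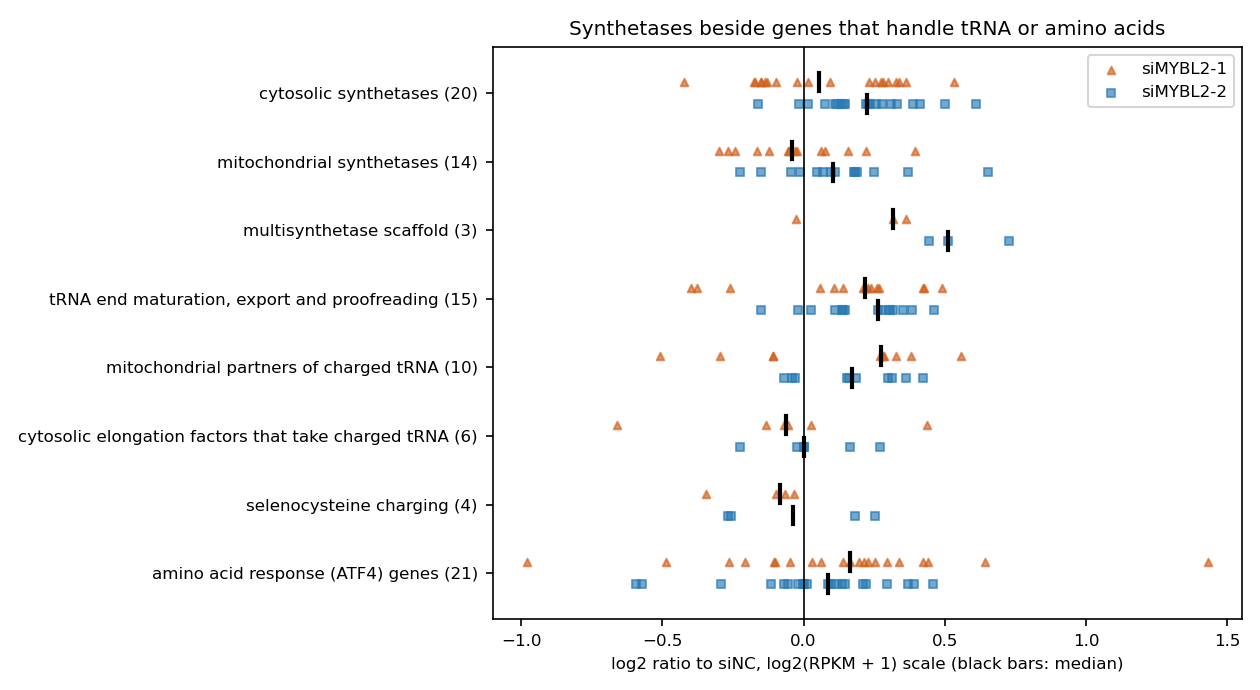
Log2 ratio to siNC on the log2(RPKM + 1) scale of each tested gene in siMYBL2-1 (triangles) and siMYBL2-2 (squares), for the synthetases and 6 lists of genes that act beside them, with the number of genes in parentheses and black bars at the medians. The medians run from -0.08 (selenocysteine charging, siMYBL2-1) to 0.51 (multisynthetase scaffold, siMYBL2-2), and 0 genes shown passed the test.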

How the data were processed

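Per the labels' protocols, poly(A) RNA was fragmented and made into dUTP-marked libraries. The authors deposited 1 table of RPKM values with exon intervals and exonic lengths on hg38. Per the submitters' processing notes cutadapt 1.9, HISAT2 2.0.4 and StringTie 1.3.4d were used, with no role given. The sources used here do not name the read counter, its strand setting or the annotation. RPKM times length was a whole multiple of 1 step for 100% of values in each library (tolerance 0.001 reads), which gave the reads. At these depths 3 reads on 1 kilobase are 0.0745, 0.0717 and 0.0650 RPKM. All 36 genes lay at a position overlapping the same gene in GENCODE release 29.

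Genes whose mean reached 1 RPKM were fitted on log2(RPKM + 1) by limma-trend (limma 3.58.1 in R 4.3.3) as the main test, Benjamini-Hochberg adjusted over all genes with a threshold of 0.05. Log2 values are on this scale, which understates changes of low genes. Ratios are plain, with exact conditional binomial intervals at 95% on the reads. Residual spread comes from the siMYBL2 pair alone, moderated over genes, and siNC is taken to share it. Percentages of unshared bases count exonic bases that no other row covers. The fit was checked on simulated data. The members, companion lists and motifs were chosen with earlier results of these data known. All 36 members were named. Limma values were given for the 5 highest and 3 lowest cytosolic and 3 highest and 3 lowest mitochondrial members by mean log2 ratio, and the 4 companions of each list with the largest mean ratio in size were named, with ATF4 and ASNS always. The values of 1 companion are not reported here. DDIT3, named beside MARS, EEF1G, named for its shared bases, and counts of ratios by interval were chosen after their values were seen. Alternatives were another pseudocount, other filters and scalings, robust moderation, limma-voom and each siMYBL2 library left out.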

Additional observations from a re-analysis of the deposited data

How the results depend on the processing

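The limma count over all genes was 1 (higher) by the main test, and it was 0 with no filter, with a mean of at least 5 RPKM, with either other scaling and with robust moderation, where 3405, 259, 498, 598 and 591 genes had an unadjusted p under 0.05. By limma-voom on the recovered reads it was 10 (3 higher), with 629 unadjusted. The cause of these differences was not tested. The 14 synthetases with a limma value kept their direction and stayed short of the threshold in all 80 alternative values that had a test (adjusted p 0.692 to 1). With either siMYBL2 library left out there was no test, and 25 of 28 values kept their direction. The exceptions were CARS, FARS2 and WARS2, which turned positive without siMYBL2-1, ranging with either library left out from -0.096 to 0.017, from -0.27 to 0.11 and from -0.30 to 0.068. Without siMYBL2-1 or siMYBL2-2 the number of cytosolic genes above siNC was 18 or 11 of 20, that of mitochondrial genes 10 or 5 of 14, the cytosolic median 0.22 or 0.054, the mitochondrial median 0.10 or -0.042, and their difference 0.12 or 0.10 (main 0.18 on the mean of both libraries). With a mean of at least 5 RPKM 2 of 6 mitochondrial genes lay above siNC in both libraries. With the members of at least 90% unshared bases only, chosen after seeing the data, the difference was 0.16. No paired analysis was possible because a single siNC library stands against both siMYBL2 libraries. The 95% interval of the limma log2 change included 0 for all 34 tested synthetases.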

Other observations

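Genes of selenocysteine charging and of cytosolic elongation had medians near siNC. Of 6 genes for selenocysteine 4 were tested and 0 passed limma, with medians of -0.08 in siMYBL2-1 and -0.04 in siMYBL2-2. EEFSEC, the elongation factor for this tRNA, was at 2.48, 1.74 and 1.90 RPKM, again in the order siNC, siMYBL2-1, siMYBL2-2, and SECISBP2, which binds the selenocysteine insertion element, at 9.01, 8.35 and 7.38 RPKM, both below siNC in both libraries. SEPHS1 and SEPHS2, the selenophosphate synthetase genes, split around siNC, SEPHS1 at 13.5, 13.1 and 16.2 RPKM and SEPHS2 at 10.1, 9.63 and 11.6 RPKM. Of the 6 elongation factor genes 0 passed limma (medians -0.06 and 0.00). They include EEF1G, of which 0.0736% of the bases belong to no other row. EEF1G held 37426 reads in siNC, so reads of shared bases were counted for that row. EEF1A1, which brings charged tRNA to the ribosome, was at 336, 307 and 336 RPKM, and the translocase EEF2 at 358, 484 and 402 RPKM, above siNC in both. EEF1D, of the exchange factor of EEF1A1, was at 63.2, 64.3 and 53.9 RPKM, with 66.0% of its bases in no other row. EEF1A2, the second form of EEF1A, had the widest log2 difference of the 6 within the siMYBL2 pair, at 1.67, 0.691 and 2.22 RPKM.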
